A study of Mus musculus with 12 samples.

Results

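TCRβ CD8αα intraepithelial lymphocytes (IEL) that arose from transferred CD8αβ T cells were compared with TCRβ CD4 IEL that arose from transferred CD4 T cells, by bulk RNA sequencing of the mouse small intestine. The first group is called CD8αα from CD8αβ and the second CD4 IEL, with 3 libraries each, so the comparison used 6 of the 12 libraries of the series. The libraries were taken by their labelled group and not by any expression value. Of 25899 gene symbols in the count table, 12622 had enough reads to be tested.

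All hosts were Rag2-/- mice, which lack host T and B cells but keep NK cells and other innate lymphoid cells. Every host was given, in 1 intravenous injection, at least 2000000 conventional T cells, either CD8αβ+ or CD4+, taken from the lymph nodes of donors labelled Themis WT, and the gut was taken 1 week later. Hosts of CD8αβ T cells gave the TCRβ CD8αα cells described here and TCRβ CD8αβ cells (CD8αβ IEL). Hosts of CD4 T cells gave TCRβ CD8αα cells (CD8αα from CD4) and the TCRβ CD4 cells used here. The labels give the genotype WT for every library. They give neither age nor strain, nor whether each replicate is a different mouse, and p-values therefore speak only for the spread between these libraries. The 2 groups compared differ both in the donor T cell and in the sorted phenotype, and within this comparison these cannot be told apart. Levels in the other 2 groups are therefore given beside some genes, and these groups share no library with the pair.

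IEL are T cells that lie between the epithelial cells of the gut. Conventional CD4 and CD8αβ T cells can enter the epithelium and start to express the CD8αα homodimer there, which binds the epithelial class I molecule TL and dampens T cell receptor signals. The T cell receptor signals through the CD3 chains and CD3ζ, whose ITAM motifs are phosphorylated by Lck and bound by ZAP-70, and LAT and SLP-76 pass the signal on. NK and myeloid receptors use other ITAM chains, FcεRIγ and DAP12, which act mostly through SYK. In CD4 T cells ThPOK upholds the helper fate, and gut CD4 T cells often make IL-17 and IL-22.

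Library totals were 9311338 to 11068713 counts in CD8αα from CD8αβ and 6380477 to 8594095 counts in CD4 IEL. Levels are given as CPM, counts scaled to a library total of 1000000 after TMM scaling. Where a library had no read of a gene, the gene could still be at up to 3 counts, or 0.271 to 0.470 CPM before TMM scaling. Intervals and limits from counts cover counting error only. Within the 2 groups, log2 CPM of replicates correlated at 0.947 to 0.968 across genes. Replicates 1 and 3 of CD8αα from CD8αβ had Xist, the RNA of the inactive X chromosome, at 383 and 373 CPM and Y-linked transcripts at 0.374 and 0.689 CPM in all, summed over 4 genes. Replicate 2 of that group and the 3 CD4 IEL libraries had 321 to 449 CPM of Y-linked transcripts and at most 36.4 CPM of Xist. In the other groups, the CD8αβ IEL libraries had 234 to 374 CPM of Y-linked transcripts and at most 13.0 CPM of Xist. Replicates 1 and 2 of CD8αα from CD4 had Xist at 645 and 485 CPM and Y-linked transcripts at 0.342 and 1.03 CPM. Replicate 3 of CD8αα from CD4 had 363 CPM of Y-linked transcripts and 1.25 CPM of Xist. The cells of the 2 groups compared were thus not matched for sex, and their origin is taken from the labels and was not tested. Counts are therefore also given with replicate 2 as the only library of CD8αα from CD8αβ, called the Y-positive library, with the spread taken from the other groups. Replicate 2 also had the highest sum of epithelial markers without Epcam and Cdh1, 825 CPM against 198 and 342 CPM in replicates 1 and 3. Sex and such transcripts cannot be told apart in it. All adjusted p-values are from edgeR's two-sided quasi-likelihood test, Benjamini-Hochberg adjusted over the 12622 genes. A gene is called where its adjusted p is under 0.05. A log2 fold change is CD8αα from CD8αβ over CD4 IEL and is given ± its standard error (SE), while ± after a mean CPM is the SD over 3 libraries.

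CD8αα from CD8αβ had high transcript levels of granzymes, the innate signalling chains FcεRIγ and DAP12, the IL-2 receptor β chain and BCL-2. Transcripts of CD3δ, CD3ε and CD3ζ, of costimulatory receptors, and of TCF-1 and other factors of T cell identity were low. So were those of the helper and Th17 genes that marked CD4 IEL. Protein levels of these genes were not measured. Most cell cycle genes tested were lower, by smaller amounts. The difference reached far beyond these groups. At adjusted p under 0.05, 4887 of 12622 genes (38.7%) were called, 2643 higher (20.9%) and 2244 lower (17.8%) in CD8αα from CD8αβ. The median log2 fold change of all tested genes was 0.04. Of the calls 3003 (61.4%) exceeded a 2-fold change. Past 2 on the log2 scale 770 genes (6.1%) were called higher and 655 (5.19%) lower, past 4 these were 335 (2.65%) and 325 (2.57%), and past 6 they were 157 (1.24%) and 171 (1.35%). The libraries of the groups did not overlap for 6738 genes (53.4%). Of genes with no read in 1 group, 109 called genes had 0 reads in CD8αα from CD8αβ and 112 had 0 reads in CD4 IEL. At the other end, for 4537 genes (35.9%) the 95% interval of the log2 fold change lay within 1 of 0. With the Y-positive library alone 3079 genes were called, 1707 higher and 1372 lower. When libraries were scaled by their totals alone, the median of all genes was -0.13 and 2110 genes were higher and 3071 lower. Among the 6 pairs of groups in the series, CD8αα from CD4 over CD8αβ IEL had more calls, 5008 (39.7%). The other 4 pairs share libraries with this one, and among them CD8αα from CD8αβ had 547 calls (4.33%) over CD8αα from CD4 and 3939 (31.2%) over CD8αβ IEL. Below, genes are taken up in lists by function, some genes are in more than 1 list, and the shares above are the background against which the counts are read.

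**Figure D1:**
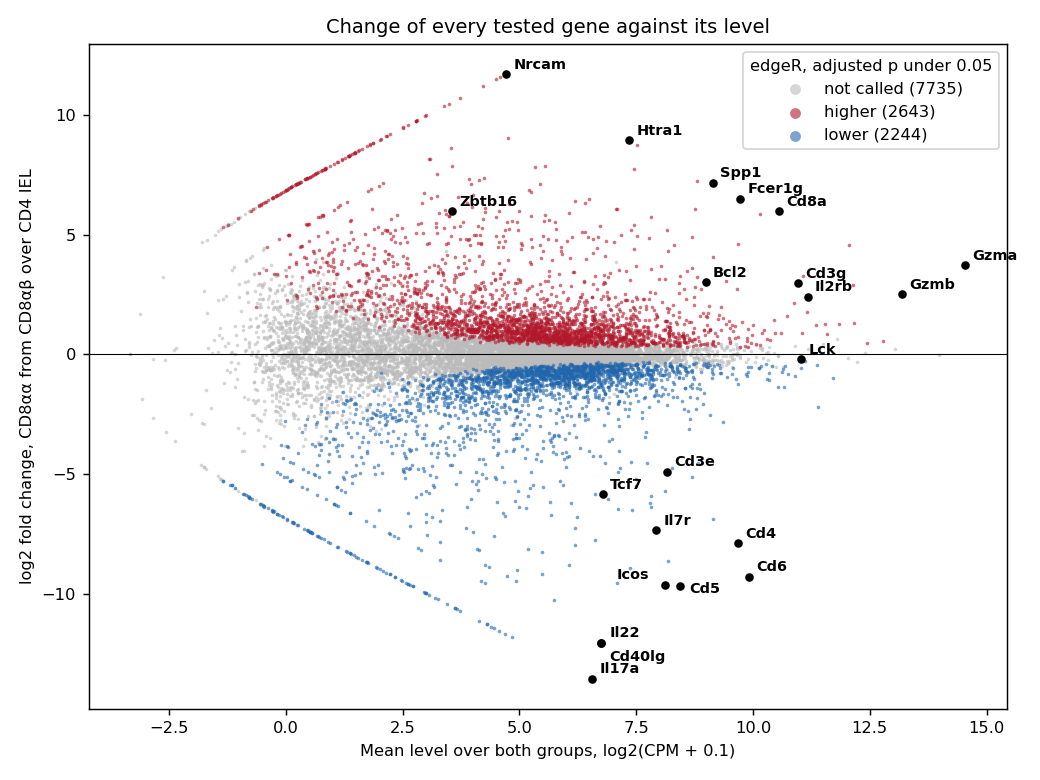
Each point is a tested gene, with its mean level over both groups on the x axis (log2 of CPM + 0.1) and its log2 fold change, CD8αα from CD8αβ over CD4 IEL, on the y axis. The 2643 red genes were called higher, the 2244 blue genes lower, and the straight edges at left are genes with 0 reads in 1 group.

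The sort markers followed the labels for CD4 and CD8α. Cd8a had 2748, 2904 and 3251 CPM in CD8αα from CD8αβ, against 45.7, 48.4 and 47.6 CPM in CD4 IEL. Cd4 had 3.55, 9.35 and 7.93 CPM in CD8αα from CD8αβ, against 1749, 1583 and 1593 CPM in CD4 IEL. The groups lay far apart for both, with log2 fold change 5.97 ± 0.13, adjusted p = 3.59e-12 for Cd8a and log2 fold change -7.89 ± 0.49, adjusted p = 7.71e-08 for Cd4. Cd8b1, the β chain of the CD8αβ heterodimer, was low in both groups, at 2.53 to 3.46 CPM in CD8αα from CD8αβ and 3.74 to 6.98 CPM in CD4 IEL, while CD8αβ IEL averaged 1124 CPM. The log2 fold change -0.79 ± 0.23, adjusted p = 0.0165 was no longer called without replicate 2 or 3 of CD8αα from CD8αβ or replicate 1 of CD4 IEL, where it was -0.76 to -0.51. Pan-T markers, in contrast, were mostly low in CD8αα from CD8αβ, although the sort was for TCRβ. Of 11 pan-T markers tested, 10 fell and 1, Cd3g, rose, and their summed level was 3450 to 3931 CPM in CD8αα from CD8αβ, most of it Cd3g, and 5680 to 6428 CPM in CD4 IEL. These markers summed to 2038 to 2572 CPM in CD8αα from CD4 and 5450 to 6346 CPM in CD8αβ IEL. Constant-region rows of the receptor itself are not used here.

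Markers of other cell types were read beside this. B cell genes Ms4a1 and Pax5 had 0 reads in all 6 libraries. Of the NK genes that Rag2-/- hosts could supply, Ncr1 was at 0.561 to 1.59 CPM in CD8αα from CD8αβ and 4.04 to 7.18 CPM in CD4 IEL, and Eomes at 0 to 0.748 and 2.25 to 3.78 CPM in the same order. Klrb1c, the NK1.1 receptor, was at 318 to 342 CPM in CD8αα from CD8αβ and 10.03 to 19.5 CPM in CD4 IEL. Over the 15 NK and innate lymphoid markers 4 rose and 8 fell, and their summed level was 5093 to 5392 CPM in CD8αα from CD8αβ and 2347 to 2549 CPM in CD4 IEL, with Il2rb making up most of it in CD8αα from CD8αβ. Of 19 myeloid markers 13 were tested, 2 rose and 4 fell, and the sum was 246 to 313 CPM in CD8αα from CD8αβ and 64.2 to 140.4 CPM in CD4 IEL. Most of it was Itgam at 152 to 242 CPM in CD8αα from CD8αβ, where Lyz2, the lysozyme of macrophages, was at 0 to 1.49 CPM and Emr1, S100a8, S100a9, Fcgr1 and Csf3r were at 0 reads. Zbtb46, a factor of dendritic cells, averaged 7.93 ± 2.53 CPM in CD8αα from CD8αβ and 1.61 ± 1.31 CPM in CD4 IEL, and Cebpb, a myeloid factor, 0.673 ± 0.310 and 7.08 ± 6.97 CPM in the same order. Only 2 myeloid markers fell when replicate 2 or 3 of CD8αα from CD8αβ or replicate 1 or 2 of CD4 IEL was left out, and 1 with the Y-positive library. Of 10 B and plasma cell markers 4 were tested and 1 rose, Cd79b, at 66.9 to 74.0 CPM in CD8αα from CD8αβ and 3.13 to 6.76 CPM in CD4 IEL. Of 10 γδ T cell markers only 4 were matched to a row of the count table and 3 were tested. The receptor genes Trdc, Tcrg-C1, Tcrg-C2, Tcrg-C4, Trgv7 and Trdv4 were not matched, so the content of γδ T cells was not tested. Among those tested 2 fell, the scavenger receptor genes 5830411N06Rik and Cd163l1. Both were at 0 reads in CD8αα from CD8αβ, against 16.5 ± 8.36 and 5.50 ± 4.43 CPM in CD4 IEL. Of 10 stromal and endothelial markers 5 were tested. Pecam1, an adhesion protein that leukocytes also carry, rose to 591 to 749 CPM in CD8αα from CD8αβ, against 70.1 to 113 CPM in CD4 IEL, Col1a2, a collagen chain, rose to 8.85 to 13.9 CPM, against 0 to 1.74 CPM in CD4 IEL, and Pdgfrb, a receptor of pericytes, fell to 0 reads, against 7.96 to 41.8 CPM in CD4 IEL. Epithelial markers moved with the comparison. Of 20 such genes 19 were tested, 9 rose and 0 fell, and without replicate 2 of CD8αα from CD8αβ 4 rose. Without Epcam and Cdh1, which IEL can express themselves, the 18 others summed to 198, 825 and 342 CPM in CD8αα from CD8αβ, against 189.5, 184 and 83.1 CPM in CD4 IEL. Of these, Apoa1, an apolipoprotein of enterocytes, was at 24.7, 168 and 71.1 CPM in CD8αα from CD8αβ, against 12.6, 17.0 and 1.80 CPM in CD4 IEL, and Tff3, of goblet cells, averaged 5.80 ± 4.50 CPM in CD8αα from CD8αβ and 0.553 ± 0.404 CPM in CD4 IEL. The part of such transcripts in other genes was not tested. In bulk samples fewer cells of a type and less RNA per cell cannot be told apart.

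Among the genes with the most reads, Gzma, the protease granzyme A, took 3.90 to 4.40% of all counts in CD8αα from CD8αβ and 0.197 to 0.561% in CD4 IEL. In CD8αα from CD8αβ it gave the most reads of all genes, followed by Actb, Gzmb, H2-K1 and H2-D1. In CD4 IEL the leading genes were Actb, H2-K1, H2-D1, Ddx5 and Eef1a1. Of these genes, Actb, a cytoskeletal actin, had log2 fold change -0.02 ± 0.13, adjusted p = 0.912 and Eef1a1, a translation factor, log2 fold change 0.06 ± 0.13, adjusted p = 0.757.

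The 12 largest rises were taken among called genes whose groups did not overlap and whose level was above the median. The separation of the groups in these genes follows from that choice. The genes had almost no reads in CD4 IEL. Nrcam, a cell adhesion protein best known from neurons, had 48.7, 52.3 and 56.0 CPM in CD8αα from CD8αβ, against 0, 0 and 0 CPM in CD4 IEL, a level at least 408-fold higher when set against 3 counts over the CD4 IEL libraries. Gcet2, Wdr86 and Kifc3, the last a kinesin motor, also had 0 reads in CD4 IEL and were at least 376-fold, 357-fold and 288-fold higher. All 4 had reads in CD8αα from CD4, averaging 14, 25.8, 26.6 and 11.5 CPM in the order named, and at most 0.970 CPM in CD8αβ IEL. Htra1, a secreted serine protease, had 307, 328 and 347 CPM in CD8αα from CD8αβ, against 0.109, 1.44 and 0.449 CPM in CD4 IEL. The log2 fold change 8.96 ± 0.53, adjusted p = 5.59e-08 ranged from 8.33 to 10.20 without replicate 1 or 2 of CD4 IEL. Tmprss6, a membrane protease that curbs hepcidin in the liver, had 341, 377 and 375 CPM in CD8αα from CD8αβ, against 0, 1.70 and 0.899 CPM in CD4 IEL. Ptpn5, a phosphatase studied mainly in neurons, had 386, 305 and 358 CPM in CD8αα from CD8αβ, against 1.74, 0.391 and 2.85 CPM in CD4 IEL. These levels were tight in CD8αα from CD8αβ, and every CD4 IEL library was below 3 CPM for these 3 genes. P4ha2, a collagen prolyl hydroxylase, Igsf5, a junction protein, Adora2b, an adenosine receptor, and Adrbk2, a kinase of G protein-coupled receptors, had means of 93.4 ± 6.94, 80.5 ± 4.62, 35.0 ± 6.71 and 37.5 ± 7.99 CPM in CD8αα from CD8αβ and 0.356 ± 0.308, 0.325 ± 0.209, 0.203 ± 0.196 and 0.195 ± 0.222 CPM in CD4 IEL. D10Bwg1379e completed the 12, with 53.4 ± 18.2 and 0.0998 ± 0.173 CPM in the same order.

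Among the 12 genes with the largest falls, chosen in the same way, were Il17a, Il22, Il21 and Ccr6 of the Th17 list. Cd40lg and Tnfsf11 of the helper list were also among them. Of 13 Th17 genes 12 fell and 0 rose, with a median log2 fold change of -8.12, or -7.59 with genes at 0 reads set at their bound, against 0.04 over all genes. That median was -9.97 without replicate 2 of CD8αα from CD8αβ and -7.5 without replicate 1. Il17a, the gene of the cytokine IL-17A, had 0 reads in the 3 CD8αα from CD8αβ libraries, against 117, 259 and 189 CPM in CD4 IEL, at least 1762-fold lower. Il22, whose product acts on epithelial cells, had 1 read over CD8αα from CD8αβ and 112, 277 and 251 CPM in CD4 IEL, a ratio of 5909 with a 95% counting interval of 1060.1 to 233455. The fitted log2 fold change of -12.05, which depends on the prior count, was -13.69 without replicate 1 of CD8αα from CD8αβ. CD4 IEL stood apart for both genes. Il21, Il17f and the chemokine receptor gene Ccr6 had 0 reads in CD8αα from CD8αβ and were at least 461-fold, 152-fold and 379-fold lower. Rora, a nuclear receptor, averaged 5.95 ± 4.10 CPM in CD8αα from CD8αβ and 439 ± 35.9 CPM in CD4 IEL. Batf, a factor shared by many T cells, changed least of those that fell, with log2 fold change -0.73 ± 0.21, adjusted p = 0.0129, and was not called without replicate 3 of CD8αα from CD8αβ (adjusted p = 0.0546). Il6ra was not called, at log2 fold change -2.61 ± 1.02, adjusted p = 0.0628. CD8αβ IEL, which were also low, averaged 1.24 CPM of Il17a and 2.05 CPM of Il22. With the Y-positive library alone 10 Th17 genes fell. Others among the largest falls were Ankrd6, Emp1, Plcb4, a phospholipase of G protein-coupled receptors, and Ermn, which had means of 43.4 ± 3.81, 41.6 ± 12.1, 39.2 ± 15.8 and 35.1 ± 15.4 CPM in CD4 IEL and 0 reads in CD8αα from CD8αβ.

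Helper and costimulation genes fell as a group. Of 14 members 12 fell and 1 rose, with a median log2 fold change of -4.22, and 9 fell and 1 rose with the Y-positive library. Cd40lg, the CD40 ligand through which helper cells act on B cells and dendritic cells, had 1 read over CD8αα from CD8αβ, against 261, 198 and 182 CPM in CD4 IEL. That is a ratio of 6276 with a 95% counting interval of 1126 to 247925, and its fitted log2 fold change of -12.05 was -13.70 without replicate 1 of CD8αα from CD8αβ. Icos, a costimulatory receptor, had 0.841, 0.744 and 0.460 CPM in CD8αα from CD8αβ, against 575, 514 and 585 CPM in CD4 IEL (log2 fold change -9.62 ± 0.34, adjusted p = 1.19e-09). Cd28, the main costimulatory receptor of T cells, had 2.34, 0.850 and 1.03 CPM in CD8αα from CD8αβ, against 708, 464 and 572 CPM in CD4 IEL. Its log2 fold change -8.64 ± 0.47, adjusted p = 2.97e-08 was -9.25 without replicate 1 of CD8αα from CD8αβ. Unlike Cd40lg, which averaged 6.07 CPM in CD8αβ IEL, Cd28 and Icos averaged 438 and 191 CPM there. Ctla4, an inhibitor of CD28 signals, fell to 20.4, 23.0 and 25.3 CPM in CD8αα from CD8αβ, against 695, 878 and 848 CPM in CD4 IEL (log2 fold change -5.14 ± 0.30, adjusted p = 5.51e-08). Tnfsf11, the RANK ligand, had 0 reads in CD8αα from CD8αβ and was at least 492-fold lower. Gata3 and Zbtb7b, which act in the helper fate, fell by less. Gata3 had 214, 177 and 166 CPM in CD8αα from CD8αβ, against 289, 230.5 and 343 CPM in CD4 IEL (log2 fold change -0.63 ± 0.16, adjusted p = 0.00704). Zbtb7b, the ThPOK gene, had 14.6, 14.5 and 13.7 CPM in CD8αα from CD8αβ, against 28.2, 24.9 and 19.6 CPM in CD4 IEL. Its log2 fold change -0.77 ± 0.29, adjusted p = 0.0485 was no longer called when any 1 of the libraries other than replicate 3 of CD4 IEL was left out (log2 fold change -0.80 to -0.69). Runx3, which upholds the CD8 fate, had 565, 639.5 and 434 CPM in CD8αα from CD8αβ, against 351, 425 and 435 CPM in CD4 IEL, and these groups overlapped. Its log2 fold change 0.44 ± 0.14, adjusted p = 0.0275 lost the call in 4 of the 6 fits that left out 1 library (0.30 to 0.43). Tnfrsf18, the GITR receptor, was the member that rose (log2 fold change 0.86 ± 0.13, adjusted p = 0.000144). Maf, a factor of helper and IL-10 producing cells, averaged 12.4 ± 2.60 CPM in CD8αα from CD8αβ and 121 ± 15.1 CPM in CD4 IEL (log2 fold change -3.29 ± 0.33, adjusted p = 4.69e-06).

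Regulatory T cell genes were low in CD8αα from CD8αβ. Of 12 list members 10 were tested, 6 fell and 1 rose, with a median log2 fold change of -1.69, and 3 fell and 1 rose with the Y-positive library. Foxp3, the factor that defines these cells, was at 6.73, 7.87 and 9.998 CPM in CD8αα from CD8αβ, against 36.2, 41.6 and 19.8 CPM in CD4 IEL (log2 fold change -1.99 ± 0.30, adjusted p = 0.000147). Il2ra, the high-affinity chain of the IL-2 receptor, had 3 reads over CD8αα from CD8αβ, against 28.1, 34.8 and 37.9 CPM in CD4 IEL, a ratio of 318 with a 95% counting interval of 108 to 1544. Its fitted value of -8.13 on the log2 scale was -11.05 without replicate 2 of CD8αα from CD8αβ and -7.54 without replicate 1. Folr4, the folate receptor 4 gene, had 0 reads in CD8αα from CD8αβ and was at least 161-fold lower. Lrrc32, which tethers TGFβ to the surface of these cells, averaged 0.0935 ± 0.162 CPM in CD8αα from CD8αβ and 3.48 ± 1.08 CPM in CD4 IEL. The member that rose was Lag3, an inhibitory receptor of activated T cells, with 1309, 1411 and 1505 CPM in CD8αα from CD8αβ, against 126, 256 and 251 CPM in CD4 IEL (log2 fold change 2.74 ± 0.29, adjusted p = 9.1e-06).

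The chains and adaptors of the T cell receptor fell while Cd3g rose. Of 30 genes of the receptor complex and its signalling, 21 fell and 2 rose, with a median log2 fold change of -1.60 against 0.04 over all genes, and 19 fell and 2 rose with the Y-positive library. Cd3g, Cd3d and Cd3e lie side by side on chromosome 9 and encode the γ, δ and ε chains. Cd3g had 3295, 3780.5 and 3569.7 CPM in CD8αα from CD8αβ, against 424, 465 and 458 CPM in CD4 IEL (log2 fold change 2.98 ± 0.12, adjusted p = 2.37e-09). Cd3d had 17.9, 20.4 and 21.1 CPM in CD8αα from CD8αβ, against 248, 217 and 234 CPM in CD4 IEL (log2 fold change -3.55 ± 0.26, adjusted p = 2.52e-07). Cd3e had 22.2, 18.9 and 14.1 CPM in CD8αα from CD8αβ, against 505, 528 and 639 CPM in CD4 IEL (log2 fold change -4.92 ± 0.35, adjusted p = 2.29e-07). Neighbouring genes thus moved in opposite directions, with no overlap between the groups in any of the 3. Per kilobase of exon, the levels in CD8αα from CD8αβ were 1086 CPM for Cd3g, 10.9 CPM for Cd3d and 4.51 CPM for Cd3e, against 137, 128 and 137 CPM in CD4 IEL. Cd247, which encodes CD3ζ, was at 6.53 CPM per kilobase in CD8αα from CD8αβ and 71.1 CPM per kilobase in CD4 IEL (log2 fold change -3.44 ± 0.20, adjusted p = 5.51e-08). Per kilobase of exon, with all annotated exons of a gene counted, the 3 CD3 genes were thus level in CD4 IEL. In CPM they ranged from 217 to 639 there. In CD8αα from CD8αβ Cd3g stood alone by either measure.

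The 250 bases before the RefSeq start of these genes and of Fcer1g, the ITAM chain that rose most, are shown because neighbours in the genome changed in opposite ways. The windows are on GRCm38.p6, the NCBI release of mm10, at chr9:44980432-44980681 (minus strand) for Cd3g, chr9:44981536-44981785 (plus strand) for Cd3d, chr9:45009612-45009861 (minus strand) for Cd3e and chr1:171234350-171234599 (minus strand) for Fcer1g. Each is written 5′ to 3′ on the strand of its gene and ends at the base before the start. Capitals mark matches on either strand to CTTTGA, a core of TCF/LEF sites, and to AGGAAG, a core of ETS sites.
Cd3g: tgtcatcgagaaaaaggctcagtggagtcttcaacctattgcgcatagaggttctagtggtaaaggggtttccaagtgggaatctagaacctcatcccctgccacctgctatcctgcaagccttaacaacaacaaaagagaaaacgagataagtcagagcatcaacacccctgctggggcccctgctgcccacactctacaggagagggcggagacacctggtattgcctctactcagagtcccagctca
Cd3d: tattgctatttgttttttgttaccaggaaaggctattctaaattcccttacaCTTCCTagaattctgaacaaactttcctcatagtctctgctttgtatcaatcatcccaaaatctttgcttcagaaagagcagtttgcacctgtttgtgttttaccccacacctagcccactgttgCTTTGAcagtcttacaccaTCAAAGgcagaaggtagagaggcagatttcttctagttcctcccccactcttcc
Cd3e: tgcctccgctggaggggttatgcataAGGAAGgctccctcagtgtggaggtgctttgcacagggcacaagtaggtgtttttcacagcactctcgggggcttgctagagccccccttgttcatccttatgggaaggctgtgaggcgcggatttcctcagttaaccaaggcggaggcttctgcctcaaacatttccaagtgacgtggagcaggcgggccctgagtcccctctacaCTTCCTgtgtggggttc
Fcer1g: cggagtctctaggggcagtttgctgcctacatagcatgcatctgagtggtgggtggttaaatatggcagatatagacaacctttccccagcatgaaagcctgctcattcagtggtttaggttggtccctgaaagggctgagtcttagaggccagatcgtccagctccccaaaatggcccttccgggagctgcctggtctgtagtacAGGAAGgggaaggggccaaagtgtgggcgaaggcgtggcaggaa
The Cd3d window held 2 matches to the TCF/LEF core, at 73 and 54 bases before the start, and 1 to the ETS core. Cd3e had 2 ETS matches, Fcer1g had 1, and the Cd3g window had neither. None of these matches overlapped another, and TGTGGT, a core of RUNX sites, was in none of the 4 windows. Of 27025 RefSeq promoters of the same length, 14.1% held the TCF/LEF core, 29.2% the ETS core and 14.2% the RUNX core. Among the 8743 tested genes with a promoter in the table, the TCF/LEF core was in 12.7% of those called higher, 9.12% of those called lower and 10.9% in all. In the same order the ETS core was in 27.0%, 30.1% and 28.5%, and the RUNX core in 11.7%, 9.99% and 11.2%. A match in these letters is not a binding site. The starts of Cd3g and Cd3d, which point away from each other, are 1355 bases apart, and those of Cd3d and Cd3e 27825 bases apart.

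Other parts of the pathway fell by very different amounts. Lat, the adaptor that ZAP-70 phosphorylates, had 40.1, 42.4 and 30.5 CPM in CD8αα from CD8αβ, against 749, 762 and 1101 CPM in CD4 IEL (log2 fold change -4.53 ± 0.23, adjusted p = 2.02e-08). Plcg1, the phospholipase recruited by LAT, had 44.8, 31.0 and 43.8 CPM in CD8αα from CD8αβ, against 451, 290.0 and 400.0 CPM in CD4 IEL (log2 fold change -3.25 ± 0.30, adjusted p = 2.46e-06). The groups did not overlap in either gene. Surface proteins Cd5, Cd6 and Cd2, which tune or aid receptor signals, were nearly silent. Cd6 had 3.37, 2.66 and 3.10 CPM in CD8αα from CD8αβ, against 1911, 1955 and 1939 CPM in CD4 IEL, Cd5 averaged 0.811 ± 0.495 CPM in CD8αα from CD8αβ and 694 ± 42.8 CPM in CD4 IEL, and Cd2 0.557 ± 0.628 and 145 ± 27.3 CPM in the same order. Ubash3a, a phosphatase-like inhibitor of T cell receptor signals, averaged 0.344 ± 0.206 CPM in CD8αα from CD8αβ and 274 ± 22.3 CPM in CD4 IEL (log2 fold change -9.56 ± 0.40, adjusted p = 3.95e-09). Themis, which sets the signal strength of developing T cells, had 12.2, 7.65 and 8.27 CPM in CD8αα from CD8αβ, against 410.2, 331 and 321 CPM in CD4 IEL (log2 fold change -5.23 ± 0.22, adjusted p = 4.01e-09). The donors were wild type for Themis. The proximal kinases did not pass the test. Lck had 1875, 2007 and 1941 CPM in CD8αα from CD8αβ, against 2098, 2168 and 2455 CPM in CD4 IEL, with a log2 fold change of -0.21 (95% interval -0.45 to 0.04, adjusted p = 0.166). Zap70 had a log2 fold change of -0.34 (95% interval -0.67 to -0.02, adjusted p = 0.089) and was called lower without replicate 1 of CD4 IEL (-0.52). Vav1, an exchange factor, had a log2 fold change of -0.12 (95% interval -0.35 to 0.10, adjusted p = 0.375). Sla2, an adaptor that lowers receptor signals, was the second gene that rose (log2 fold change 1.32 ± 0.13, adjusted p = 3.79e-06).

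ITAM chains and kinases of NK and myeloid cells were high. Of 15 such genes 11 rose and 1 fell, with a median log2 fold change of 4.67 (4.06 without replicate 3 of CD8αα from CD8αβ, 5.34 without replicate 2 of CD4 IEL), and 10 rose and 1 fell with the Y-positive library. Fcer1g had 1186, 2118 and 1746 CPM in CD8αα from CD8αβ, against 17.1, 30.5 and 7.94 CPM in CD4 IEL (log2 fold change 6.50 ± 0.55, adjusted p = 1.12e-06). Tyrobp, which encodes DAP12, had 1469, 3036 and 2157 CPM in CD8αα from CD8αβ, against 29.3, 59.6 and 24.0 CPM in CD4 IEL (log2 fold change 5.88 ± 0.65, adjusted p = 1.17e-05). Per kilobase of exon, Fcer1g was at 1926 CPM in CD8αα from CD8αβ and 21.2 CPM in CD4 IEL. In CD8αα from CD8αβ its level was above that of Cd3g per kilobase of exon but below it in CPM. The order of these genes thus depends on the exon lengths used. Lat2, an adaptor related to LAT that myeloid and B cells use, had 548, 566 and 558 CPM in CD8αα from CD8αβ, against 11.6, 23.9 and 9.88 CPM in CD4 IEL (log2 fold change 5.20 ± 0.35, adjusted p = 1.35e-07). Syk, the kinase related to ZAP-70, had 274, 189.5 and 208 CPM in CD8αα from CD8αβ, against 6.87, 14.5 and 3.59 CPM in CD4 IEL, with log2 fold change 4.74 ± 0.64, adjusted p = 6.27e-05, or 5.34 without replicate 2 of CD4 IEL. Plcg2, the phospholipase that acts with SYK, had 580.2, 607 and 569.9 CPM in CD8αα from CD8αβ, against 72.5, 144 and 81.6 CPM in CD4 IEL (log2 fold change 2.56 ± 0.21, adjusted p = 8.63e-07). The 2 groups did not overlap in any of these 5 genes. Replicate 2 of CD4 IEL had the highest level in that group for all 5, as it had for Gzma. Fcgr3, a low-affinity IgG receptor that pairs with FcεRIγ, averaged 341 ± 19.2 CPM in CD8αα from CD8αβ and 8.06 ± 7.37 CPM in CD4 IEL, and Fgr, a SRC-family kinase, 417 ± 36.4 and 34.6 ± 11.3 CPM in the same order. Sh2d1b1, the EAT-2 adaptor of SLAM receptors, averaged 145 ± 18.7 CPM in CD8αα from CD8αβ and 1.68 ± 2.62 CPM in CD4 IEL. The gene that fell was Sh2d1a, the SAP adaptor of SLAM receptors, at 1.5, 0.957 and 0 CPM in CD8αα from CD8αβ, against 37.3, 33.5 and 30.4 CPM in CD4 IEL. Hcst, which encodes DAP10 and carries no ITAM, was not called (log2 fold change -0.61 ± 0.36, adjusted p = 0.19). Summed over the 15 genes, CD8αα from CD8αβ had 5230 to 7824 CPM and CD8αα from CD4 had 5000 to 5679 CPM. The sums were 334 to 717 CPM in CD8αβ IEL and 217 to 418 CPM in CD4 IEL.

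**Figure D2:**
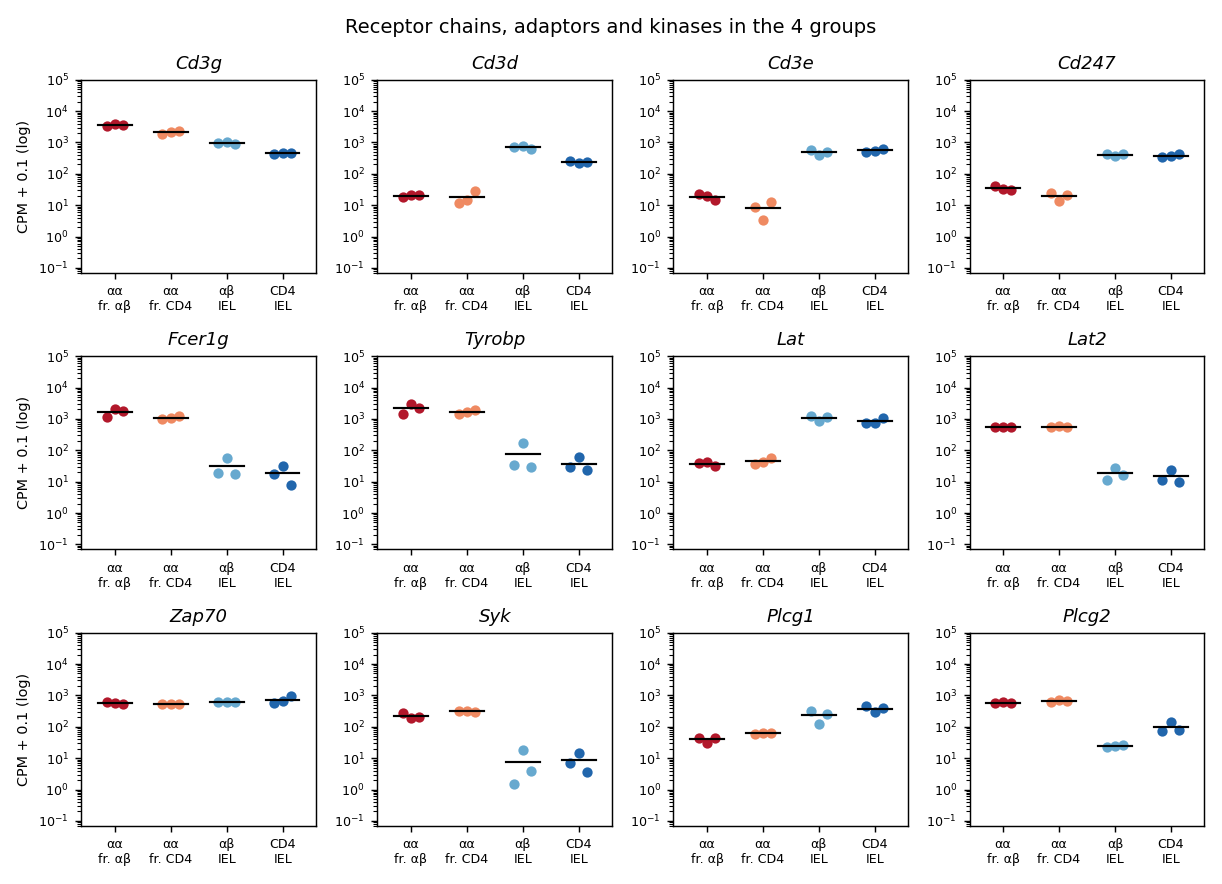
CPM + 0.1 on a log axis in each library of the 4 groups (αα fr. αβ, CD8αα from CD8αβ; αα fr. CD4, CD8αα from CD4; αβ IEL, CD8αβ IEL; CD4 IEL), with the group mean as a line. Cd3g, Fcer1g, Tyrobp, Lat2, Syk and Plcg2 are high and Cd3d, Cd3e, Cd247, Lat and Plcg1 low in CD8αα from CD8αβ, while Zap70 differs little.

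NK receptors were mixed. Of 29 genes 22 were tested, 9 rose and 6 fell, with a median log2 fold change of 1.41, or 0.66 with genes at 0 reads set at their bound, and 7 rose and 5 fell with the Y-positive library. The median moved with single libraries and was 0.73 and 0.51 without replicates 2 and 3 of CD8αα from CD8αβ, and 0.47, 2.03 and 0.22 without replicates 1, 2 and 3 of CD4 IEL. Klrb1a and Klrb1c, of the NKR-P1 family, rose together, Klrb1a with 232, 285 and 273 CPM in CD8αα from CD8αβ, against 2.73, 3.78 and 5.24 CPM in CD4 IEL (log2 fold change 6.09 ± 0.33, adjusted p = 2.87e-08) and Klrb1c with log2 fold change 4.40 ± 0.24, adjusted p = 3.2e-08. Klra5, a Ly49 receptor, had 138, 182 and 209.9 CPM in CD8αα from CD8αβ, against 0.872, 4.70 and 0.150 CPM in CD4 IEL, and its log2 fold change 6.51 ± 0.69, adjusted p = 8.25e-06 was 8.21 without replicate 2 of CD4 IEL. Cd244, the SLAM receptor 2B4, had 1213, 1309 and 1152 CPM in CD8αα from CD8αβ, against 94.3, 212 and 127 CPM in CD4 IEL (log2 fold change 3.08 ± 0.28, adjusted p = 2.26e-06). Several classical NK and CD8 effector receptors went the other way. Cd226, the activating receptor DNAM-1, had 8.88, 8.5 and 9.31 CPM in CD8αα from CD8αβ, against 313, 251 and 235 CPM in CD4 IEL (log2 fold change -4.90 ± 0.25, adjusted p = 2.02e-08). Klrc1, which encodes NKG2A, averaged 3.83 ± 1.30 CPM in CD8αα from CD8αβ and 13.0 ± 3.19 CPM in CD4 IEL (log2 fold change -1.77 ± 0.35, adjusted p = 0.00134), although CD8αβ IEL averaged 239.8 CPM, and Klrc2, its activating relative, averaged 0.830 ± 0.686 CPM in CD8αα from CD8αβ and 3.18 ± 0.998 CPM in CD4 IEL. Klri1 rose to 13.8 ± 4.33 CPM in CD8αα from CD8αβ, against 0.304 ± 0.527 CPM in CD4 IEL. Reads of Klra genes are uncertain, because these genes are near-copies of each other and the treatment of reads with several matches is not given in the sources used here.

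Most granule genes tested rose. Of 19 cytotoxic genes 11 rose, 3 fell and 5 were not called, with a median log2 fold change of 1.02, and 11 and 3 with the Y-positive library. Gzma had 40325, 46876 and 46034 CPM in CD8αα from CD8αβ, against 1842, 5180.1 and 3065 CPM in CD4 IEL (log2 fold change 3.72 ± 0.40, adjusted p = 9.98e-06). Gzmb, granzyme B, had 14043, 15508 and 18368 CPM in CD8αα from CD8αβ, against 1762, 4332 and 2316 CPM in CD4 IEL (log2 fold change 2.51 ± 0.33, adjusted p = 5.34e-05). In both the lowest library of CD8αα from CD8αβ was above the highest of CD4 IEL, which was replicate 2. Gzmc, granzyme C, averaged 74.1 ± 9.66 CPM in CD8αα from CD8αβ and 3.23 ± 1.60 CPM in CD4 IEL (log2 fold change 4.50 ± 0.40, adjusted p = 1.7e-06). Prf1, the pore protein perforin, had 449, 481 and 459 CPM in CD8αα from CD8αβ, against 113, 170.0 and 90.2 CPM in CD4 IEL (log2 fold change 1.90 ± 0.22, adjusted p = 1.77e-05). Granule proteins Nkg7 and Srgn, the protease Ctsc, which activates granzymes, and the serpin Serpinb9, which inhibits granzyme B, rose by 2.14, 1.02, 1.59 and 1.46 on the log2 scale. Granzyme K went against them, with 19.4, 14.9 and 25.9 CPM in CD8αα from CD8αβ, against 144, 112 and 99.0 CPM in CD4 IEL for Gzmk (log2 fold change -2.56 ± 0.23, adjusted p = 1.52e-06). Stx11 and Rab27a, which help granules to reach and fuse with the membrane, also fell (log2 fold change -1.01 ± 0.22, adjusted p = 0.0024 and log2 fold change -0.88 ± 0.15, adjusted p = 0.000493). Fasl, the death ligand, and Unc13d, a granule priming factor, differed little, with a log2 fold change of 0.25 (95% interval -0.03 to 0.53, adjusted p = 0.144) and a log2 fold change of -0.06 (95% interval -0.41 to 0.29, adjusted p = 0.789).

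Transcription factors of T cell identity were low. Of 16 tested 12 fell and 0 rose, with a median log2 fold change of -1.94, and 10 fell and 1 rose with the Y-positive library. Tcf7, which encodes TCF-1 of naive and memory T cells, had 3.27, 4.25 and 3.68 CPM in CD8αα from CD8αβ, against 246, 178 and 226 CPM in CD4 IEL (log2 fold change -5.86 ± 0.52, adjusted p = 1.65e-06). Bcl11b, which commits cells to the T lineage, had 17.7, 19.1 and 15.2 CPM in CD8αα from CD8αβ, against 372, 345 and 512 CPM in CD4 IEL (log2 fold change -4.56 ± 0.32, adjusted p = 1.66e-07). Satb1, a chromatin organiser of T cells, had 1.59, 1.06 and 0.804 CPM in CD8αα from CD8αβ, against 79.8, 56.9 and 77.3 CPM in CD4 IEL (log2 fold change -5.91 ± 0.39, adjusted p = 1.07e-07). For all 3 the lowest CD4 IEL library was above 50 CPM and no library of CD8αα from CD8αβ reached 20 CPM. Lef1, a partner of TCF-1, had log2 fold change -4.60 ± 0.43, adjusted p = 2.54e-06, and the fall was smaller for Runx1 (log2 fold change -2.07 ± 0.26, adjusted p = 4.05e-05), Ikzf1 (log2 fold change -1.41 ± 0.24, adjusted p = 0.000373) and Ets1 (log2 fold change -1.35 ± 0.18, adjusted p = 5.55e-05). Foxp1, a quiescence factor, was not called, with a log2 fold change of -0.18 (95% interval -0.45 to 0.10, adjusted p = 0.297).

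Factors of innate and effector lymphocytes split. Of 21 listed 19 were tested, 6 rose and 10 fell, with a median log2 fold change of -0.73, and 5 rose and 9 fell with the Y-positive library. Zbtb16, which encodes PLZF of NKT and innate lymphoid cells, had 22.2, 25.3 and 21.8 CPM in CD8αα from CD8αβ, against 0, 0.261 and 0.899 CPM in CD4 IEL. Its log2 fold change 5.98 ± 0.77, adjusted p = 4.67e-05 was 5.27 to 7.41 without replicate 1 or 3 of CD4 IEL. Irf8 had 504, 533 and 453 CPM in CD8αα from CD8αβ, against 72.6, 57.0 and 39.8 CPM in CD4 IEL (log2 fold change 3.13 ± 0.43, adjusted p = 7.15e-05). Nfil3, needed for NK and innate lymphoid cells, had 259.7, 230.0 and 247 CPM in CD8αα from CD8αβ, against 63.5, 102 and 99.1 CPM in CD4 IEL (log2 fold change 1.48 ± 0.23, adjusted p = 0.000197). In all 3 the lowest library of CD8αα from CD8αβ was above the highest of CD4 IEL. Tox, a factor of innate lymphoid and chronically stimulated T cells, rose (log2 fold change 1.15 ± 0.19, adjusted p = 0.000289), while its relative Tox2 had 2 reads over CD8αα from CD8αβ and 65.9, 109 and 144 CPM in CD4 IEL. Irf4, induced by T cell receptor signals, fell to 16.5, 14.6 and 17.4 CPM in CD8αα from CD8αβ, against 319, 277 and 194 CPM in CD4 IEL (log2 fold change -4.03 ± 0.30, adjusted p = 3.51e-07). Gm13060, the symbol in the table for Zfp683 (Hobit, a factor of tissue residency), had 0 reads in CD8αα from CD8αβ and averaged 2.66 ± 2.19 CPM in CD4 IEL. Ahr, the aryl hydrocarbon receptor on which many IEL depend, had 73.8, 44.1 and 48.0 CPM in CD8αα from CD8αβ, against 291, 303 and 214 CPM in CD4 IEL (log2 fold change -2.28 ± 0.26, adjusted p = 1.59e-05). Id2 and Tbx21, which encodes T-bet, were close to level, with a log2 fold change of 0.00 (95% interval -0.30 to 0.29, adjusted p = 0.991) for Id2 and a log2 fold change of 0.03 (95% interval -0.25 to 0.30, adjusted p = 0.886) for Tbx21.

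**Figure D3:**
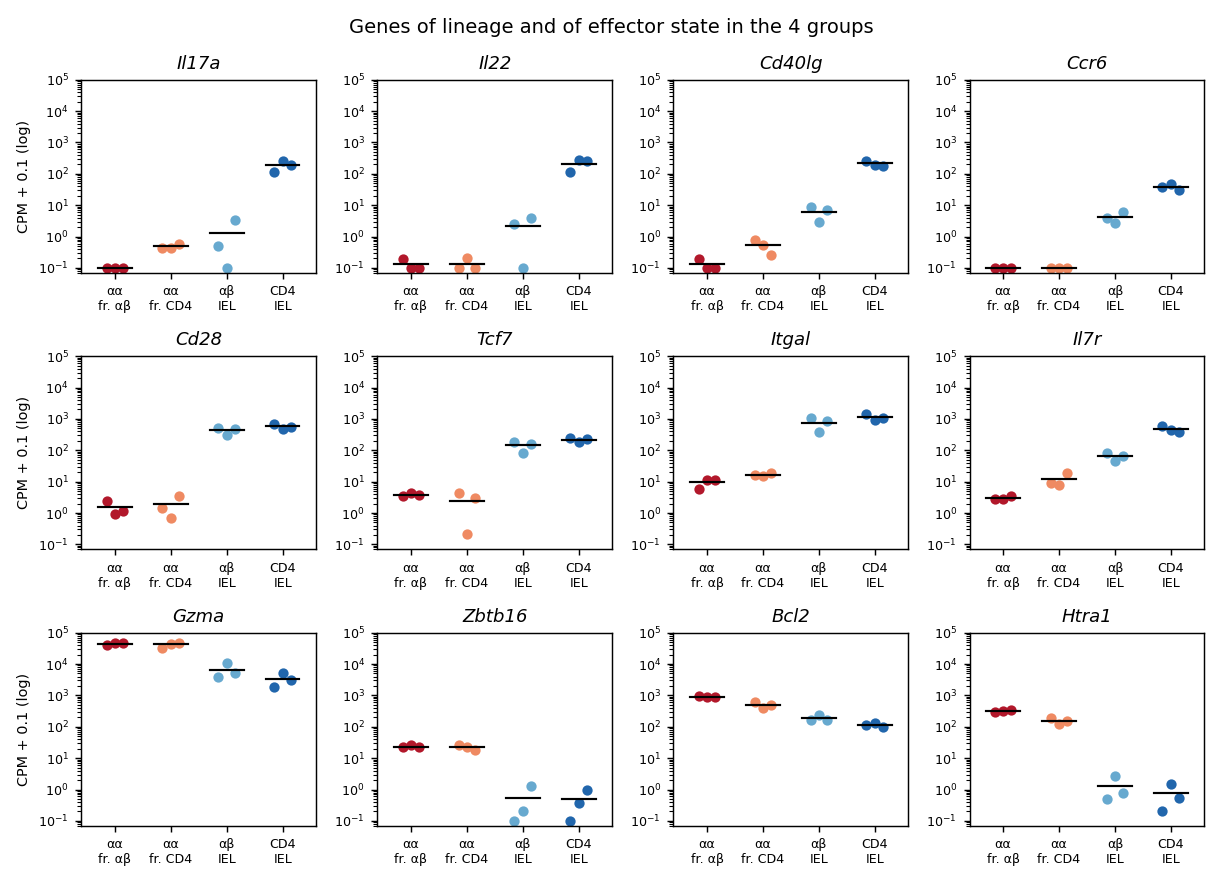
CPM + 0.1 on a log axis in each library of the 4 groups, named as in the plot of receptor chains, with the group mean as a line. Il17a, Il22, Cd40lg and Ccr6 are highest in the 3 CD4 IEL libraries, while Cd28, Tcf7 and Itgal are high in CD8αβ IEL and CD4 IEL, and Gzma, Zbtb16, Bcl2 and Htra1 in both CD8αα groups.

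Levels in the other 2 groups are set beside these. Il17a, Il22 and Cd40lg averaged 0.384, 0.0382 and 0.432 CPM in CD8αα from CD4 and 1.24, 2.05 and 6.07 CPM in CD8αβ IEL, so CD4 IEL alone were high. Cd28, Tcf7, Bcl11b and Itgal were high in CD8αβ IEL as in CD4 IEL, with means of 438, 143, 218 and 766 CPM in CD8αβ IEL, and averaged 1.79, 2.34, 15.4 and 16.6 CPM in CD8αα from CD4. Gzma, Zbtb16, Bcl2 and Htra1 averaged 41962, 22.4, 501 and 155 CPM in CD8αα from CD4 and 6592, 0.419, 189.6 and 1.24 CPM in CD8αβ IEL. Comparisons with CD8αβ IEL share libraries with the one described, so the values are only set side by side. CD8αα from CD8αβ over CD8αβ IEL had a log2 fold change of -5.25 for Tcf7, 2.75 for Gzma and -6.12 for Il17a, and CD8αβ IEL over CD4 IEL had -0.60, 0.97 and -7.44 for the same genes. For Zbtb16 the values were 5.92 and 0.06, and for Il7r -4.46 and -2.90.

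Cytokine receptors fell more often than they rose. Of 24 tested 13 fell and 2 rose, with a median log2 fold change of -0.99, and 11 fell and 1 rose with the Y-positive library. Il2rb, the β chain through which IL-2 and IL-15 signal, had 3939, 3778 and 3933 CPM in CD8αα from CD8αβ, against 679, 749 and 755 CPM in CD4 IEL (log2 fold change 2.42 ± 0.11, adjusted p = 9.48e-09). Il7r, the IL-7 receptor of naive and memory T cells, had 2.71, 2.76 and 3.33 CPM in CD8αα from CD8αβ, against 613, 457 and 383 CPM in CD4 IEL (log2 fold change -7.36 ± 0.38, adjusted p = 2.02e-08). Il2rb and Il7r thus moved in opposite directions with no overlap between the groups, and Il2rg, the γ chain that both pair with, differed little (log2 fold change 0.28, 95% interval 0.05 to 0.51, adjusted p = 0.0519). The IL-18 receptor genes were nearly silent. Il18r1 had 0.280, 0.106 and 0 CPM in CD8αα from CD8αβ, against 116, 88.0 and 63.7 CPM in CD4 IEL, with log2 fold change -9.18 ± 0.62, adjusted p = 5.93e-07, or -10.29 without replicate 1 of CD8αα from CD8αβ. Il18rap averaged 0.650 ± 0.586 CPM in CD8αα from CD8αβ and 328 ± 70.7 CPM in CD4 IEL. Il1rl1, the IL-33 receptor, and Il9r had 0 reads in CD8αα from CD8αβ and were each at least 123-fold lower. Tgfbr2, through which TGFβ acts, had 229, 216 and 256 CPM in CD8αα from CD8αβ, against 536, 401 and 428 CPM in CD4 IEL (log2 fold change -0.96 ± 0.20, adjusted p = 0.00176), while Tgfbr1 was not called (log2 fold change -0.07 ± 0.24, adjusted p = 0.837). Il4ra, the IL-4 receptor α chain, was the other receptor that rose, with 213, 240.4 and 245 CPM in CD8αα from CD8αβ, against 169.9, 147 and 192 CPM in CD4 IEL (log2 fold change 0.46 ± 0.13, adjusted p = 0.0147). That call was lost without replicate 2 or 3 of CD8αα from CD8αβ or replicate 1 or 2 of CD4 IEL (0.32 to 0.43). Il21r, with a log2 fold change of 0.36 (95% interval 0.01 to 0.71, adjusted p = 0.0928), also differed little.

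Genes of the Th1 and interferon γ axis fell or were level. Of 12 tested 8 fell and 0 rose, with a median log2 fold change of -0.82, and 4 fell with the Y-positive library. Ifng had 63.5, 81.4 and 80.3 CPM in CD8αα from CD8αβ, against 253, 315 and 315 CPM in CD4 IEL (log2 fold change -1.97 ± 0.28, adjusted p = 0.000101). Il12rb1 and Il12rb2, the IL-12 receptor chains, fell by less (log2 fold change -0.86 ± 0.18, adjusted p = 0.00202 and log2 fold change -0.98 ± 0.22, adjusted p = 0.00334). Stat4, which IL-12 activates, was level (log2 fold change 0.06, 95% interval -0.24 to 0.35, adjusted p = 0.774).

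Among secreted mediators several chemokines rose and many cytokines fell. Of 24 listed 20 were tested, 6 rose and 12 fell, with a median log2 fold change of -1.55 (-0.79 without replicate 3 of CD4 IEL), and 6 rose and 7 fell with the Y-positive library. Spp1, osteopontin, had 868, 1289.8 and 1228 CPM in CD8αα from CD8αβ, against 3.82, 14.1 and 5.69 CPM in CD4 IEL, and its log2 fold change 7.17 ± 0.80, adjusted p = 1.32e-05 was 7.86 without replicate 2 of CD4 IEL. Fgl2, a secreted fibrinogen-like protein, had 3706, 3857 and 4060.2 CPM in CD8αα from CD8αβ, against 354, 539 and 325 CPM in CD4 IEL (log2 fold change 3.25 ± 0.19, adjusted p = 5.59e-08). Ccl5, a chemokine of effector T and NK cells, had 5348, 11256 and 7341 CPM in CD8αα from CD8αβ, against 1124, 1065 and 1013 CPM in CD4 IEL (log2 fold change 2.90 ± 0.30, adjusted p = 6.9e-06). Ccl3 and Ccl4 rose as well (log2 fold change 2.41 ± 0.26, adjusted p = 9.93e-06 and log2 fold change 1.76 ± 0.22, adjusted p = 3.92e-05). Il4 was low but higher in CD8αα from CD8αβ, at 2.06, 6.27 and 3.91 CPM, with 1 read over CD4 IEL, a ratio of 93.9 with a 95% counting interval of 16.5 to 3739. Without replicate 1 of CD4 IEL its fitted log2 fold change of 6.16 was 7.99. Tnf fell to 10.3, 9.35 and 11.15 CPM in CD8αα from CD8αβ, against 187, 128 and 196 CPM in CD4 IEL (log2 fold change -4.05 ± 0.21, adjusted p = 2.2e-08). Areg, a growth factor for epithelium, averaged 0.860 ± 0.148 CPM in CD8αα from CD8αβ and 21.8 ± 4.10 CPM in CD4 IEL (log2 fold change -4.63 ± 0.69, adjusted p = 0.000155). Ccl1 had 2 reads over CD8αα from CD8αβ and averaged 4.02 ± 1.74 CPM in CD4 IEL. Ltb, lymphotoxin β of lymphoid tissue signals, fell as well (log2 fold change -2.97 ± 0.22, adjusted p = 3.09e-07). Csf1, the macrophage growth factor, averaged 0.345 ± 0.597 CPM in CD8αα from CD8αβ and 6.10 ± 0.601 CPM in CD4 IEL.

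Homing and egress receptors were low. Of 20 listed 19 were tested, 15 fell and 2 rose, with a median log2 fold change of -2.54, and 11 fell and 1 rose with the Y-positive library. Ccr9, the gut homing receptor for CCL25, had 119, 152 and 111 CPM in CD8αα from CD8αβ, against 595, 686 and 672 CPM in CD4 IEL (log2 fold change -2.35 ± 0.19, adjusted p = 6.49e-07). Cxcr6 fell by less, with 655, 790.0 and 696 CPM in CD8αα from CD8αβ, against 1186, 1145 and 1225 CPM in CD4 IEL (log2 fold change -0.73 ± 0.13, adjusted p = 0.000728). Ccr4 had 0 reads in CD8αα from CD8αβ and was at least 555-fold lower. S1pr1, which draws lymphocytes out of tissue, had 2 reads over CD8αα from CD8αβ and 49.3, 29.1 and 35.8 CPM in CD4 IEL, a ratio of 559.9 with a 95% counting interval of 155 to 4631. Without replicate 3 of CD8αα from CD8αβ its fitted log2 fold change of -8.80 was -11.24. Ccr8 had 1 read over CD8αα from CD8αβ and averaged 19.4 ± 4.97 CPM in CD4 IEL. Gpr55, a lipid receptor of IEL, had 167, 158 and 224 CPM in CD8αα from CD8αβ, against 78.2, 103 and 43.4 CPM in CD4 IEL (log2 fold change 1.29 ± 0.25, adjusted p = 0.00118). Gpr18, the other receptor that rose (log2 fold change 0.62 ± 0.19, adjusted p = 0.0179), lost the call without replicate 2 of CD8αα from CD8αβ or replicate 1 or 3 of CD4 IEL (0.52 to 0.55).

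Integrins changed in both directions. Of 17 genes of adhesion and epithelial contact 7 rose and 4 fell, and 6 rose and 3 fell with the Y-positive library. Itgal, the αL chain of LFA-1 that binds ICAM-1, had 5.80, 11.6 and 11.3 CPM in CD8αα from CD8αβ, against 1399, 892 and 1079 CPM in CD4 IEL (log2 fold change -6.88 ± 0.40, adjusted p = 5.11e-08). Itga4, the α4 chain of the gut homing integrin α4β7, had 13.4, 10.2 and 7.58 CPM in CD8αα from CD8αβ, against 218, 183 and 202 CPM in CD4 IEL (log2 fold change -4.27 ± 0.23, adjusted p = 2.33e-08). Both were low in every library of CD8αα from CD8αβ. Itgb7, the β7 chain that pairs with α4 and αE, averaged 1178 ± 80.9 CPM in CD8αα from CD8αβ and 1951 ± 259 CPM in CD4 IEL (log2 fold change -0.73 ± 0.13, adjusted p = 0.000654). Itgae, the αE chain that binds epithelial E-cadherin, had 3936, 4001 and 3966 CPM in CD8αα from CD8αβ, against 2189, 2330.4 and 2089.7 CPM in CD4 IEL (log2 fold change 0.85 ± 0.13, adjusted p = 0.00019). Itgax and Itgad, α chains that pair with the β2 chain of LFA-1, rose (log2 fold change 2.58 ± 0.25, adjusted p = 4.01e-06 and log2 fold change 2.86 ± 0.33, adjusted p = 1.71e-05), while Itgb2 itself, with a log2 fold change of -0.26 (95% interval -0.56 to 0.04, adjusted p = 0.158), differed little. Epcam, an adhesion protein of epithelium that IEL can also make, had 183, 232 and 205 CPM in CD8αα from CD8αβ, against 7.52, 5.22 and 1.95 CPM in CD4 IEL (log2 fold change 5.36 ± 0.47, adjusted p = 1.5e-06). Cdh1, E-cadherin, had 294, 247 and 290.3 CPM in CD8αα from CD8αβ, against 90.5, 88.3 and 50.9 CPM in CD4 IEL (log2 fold change 1.85 ± 0.22, adjusted p = 2.69e-05). Among the 3 libraries of CD8αα from CD8αβ, replicate 2 was highest for Epcam and lowest for Cdh1. Replicate 2 also had the highest sum of the other epithelial markers. Which cells the Epcam and Cdh1 transcripts came from was not tested. Ocln, a tight junction protein, had 2.62, 3.61 and 2.41 CPM in CD8αα from CD8αβ and 0 reads in CD4 IEL, at least 22.6-fold higher. Amica1, the JAML receptor for the epithelial protein CAR, was not called with all libraries (log2 fold change 0.47, 95% interval 0.07 to 0.87, adjusted p = 0.0576) and was called higher without replicate 1 of CD8αα from CD8αβ or replicate 2 of CD4 IEL (0.59 to 0.61).

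Inhibitory receptors, listed together with ectonucleotidases, changed in both directions, and not every member of this list is an inhibitory receptor. Of 15 members 9 rose and 5 fell, with a median log2 fold change of 0.81, and 8 rose and 4 fell with the Y-positive library. Entpd1, the ectonucleotidase CD39, had 294, 336 and 369 CPM in CD8αα from CD8αβ, against 27.0, 30.1 and 19.3 CPM in CD4 IEL (log2 fold change 3.70 ± 0.27, adjusted p = 2.78e-07). Cd200r4, a receptor of the CD200 receptor family that pairs with DAP12, had 687, 738 and 867 CPM in CD8αα from CD8αβ, against 50.2, 89.9 and 48.5 CPM in CD4 IEL (log2 fold change 3.6 ± 0.32, adjusted p = 1.52e-06). Cd300a averaged 14.8 ± 4.29 CPM in CD8αα from CD8αβ and 0.406 ± 0.392 CPM in CD4 IEL. Pdcd1, which encodes PD-1, had 1.12, 0.850 and 0.804 CPM in CD8αα from CD8αβ, against 81.3, 134 and 86.7 CPM in CD4 IEL (log2 fold change -6.73 ± 0.45, adjusted p = 1.36e-07). Btla and Havcr2, which encodes TIM-3, fell too (log2 fold change -4.39 ± 0.52, adjusted p = 2.04e-05 and log2 fold change -3.60 ± 0.37, adjusted p = 6.39e-06). Tigit and Cd96, receptors for the ligands of DNAM-1, rose slightly (log2 fold change 0.83 ± 0.17, adjusted p = 0.0016 and log2 fold change 0.58 ± 0.11, adjusted p = 0.00093).

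Survival genes changed in both directions. Of 15 genes 5 rose and 6 fell, with a median log2 fold change of -0.07, and 4 rose and 3 fell with the Y-positive library. Bcl2, which blocks mitochondrial death, had 923, 874 and 918 CPM in CD8αα from CD8αβ, against 110.3, 129 and 99.0 CPM in CD4 IEL (log2 fold change 3.0 ± 0.19, adjusted p = 8.86e-08). Bcl2l11, which encodes its antagonist BIM, had 344, 247 and 285 CPM in CD8αα from CD8αβ, against 85.5, 74.1 and 101 CPM in CD4 IEL (log2 fold change 1.75 ± 0.20, adjusted p = 1.86e-05). The groups did not overlap in either gene. Fas, the death receptor, had 0.748, 0.532 and 0 CPM in CD8αα from CD8αβ, against 23.0, 34.6 and 34.0 CPM in CD4 IEL, with log2 fold change -6.05 ± 0.51, adjusted p = 1.09e-06, or -6.71 without replicate 1 of CD8αα from CD8αβ. Bik, a killer of the BCL-2 family, averaged 2.5 ± 0.723 CPM in CD8αα from CD8αβ and 11.2 ± 1.13 CPM in CD4 IEL, Cflar, which blocks caspase-8, 64.5 ± 6.70 and 151 ± 25.9 CPM, and Bid, which caspase-8 cleaves, 41.9 ± 4.38 and 18.7 ± 2.28 CPM in the same order. Bcl2l1, which encodes BCL-XL, rose (log2 fold change 0.98 ± 0.15, adjusted p = 0.000191), and Mcl1, another survival protein, fell (log2 fold change -0.77 ± 0.13, adjusted p = 0.000441).

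**Figure D4:**
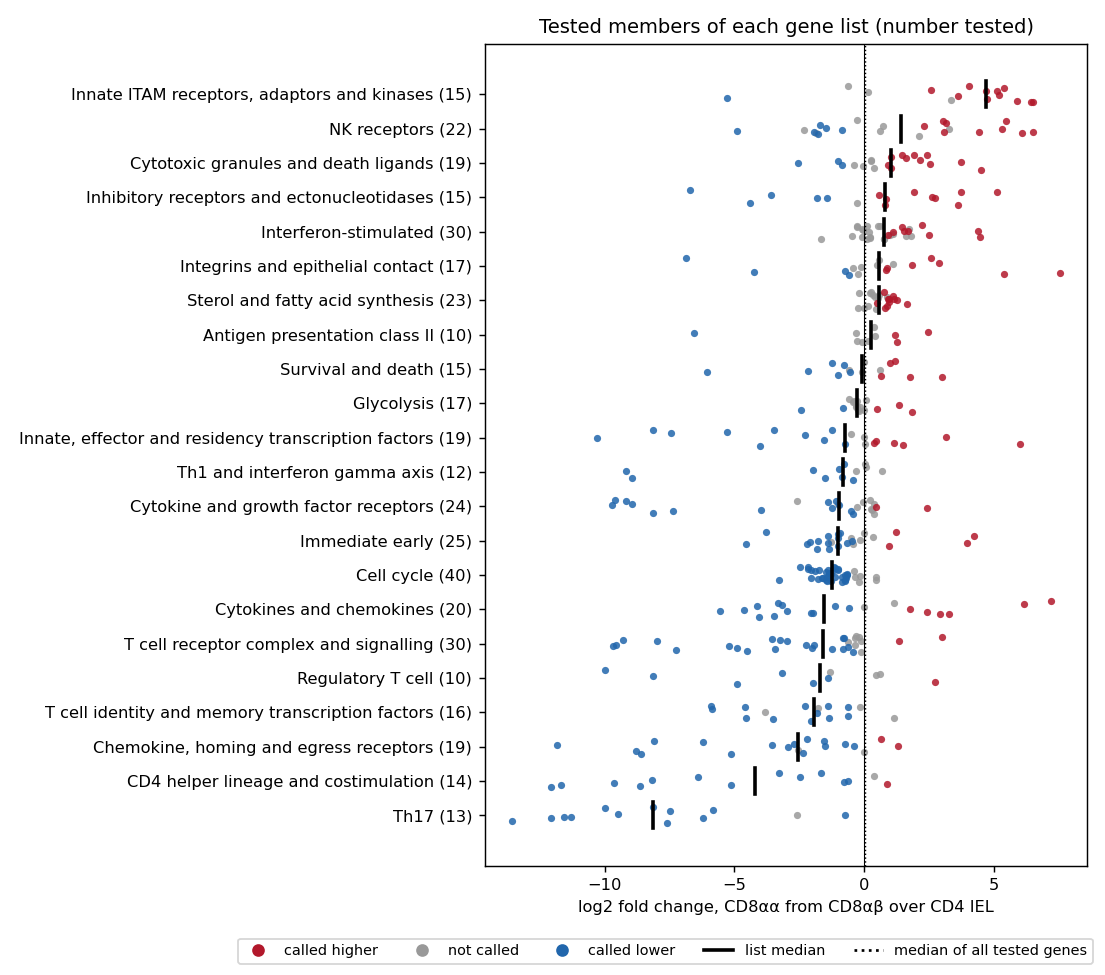
Log2 fold change, CD8αα from CD8αβ over CD4 IEL, of the tested members of each gene list, ordered by list median (black bar), with the number tested in parentheses. Innate ITAM genes lie highest with a median of 4.67 and Th17 genes lowest with -8.12, and the dotted line is the median of all genes, 0.04.

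Cell cycle genes were mostly lower. Of 40 tested 34 fell and 0 rose, with a median log2 fold change of -1.23 against 0.04 over all genes, and 21 fell with the Y-positive library. Mki67, a marker of cycling cells, had 48.5, 49.3 and 38.5 CPM in CD8αα from CD8αβ, against 138, 163 and 168 CPM in CD4 IEL (log2 fold change -1.78 ± 0.16, adjusted p = 1.76e-06). Top2a, a topoisomerase of dividing cells, had 96.0, 67.8 and 65.7 CPM in CD8αα from CD8αβ, against 250.4, 272 and 181 CPM in CD4 IEL (log2 fold change -1.61 ± 0.20, adjusted p = 3.59e-05). Their groups did not overlap. E2f2 and Foxm1, factors of the S and G2 phases, fell most, with Ccnb1, cyclin B1 (log2 fold change -3.29 ± 0.39, adjusted p = 1.98e-05, log2 fold change -2.46 ± 0.41, adjusted p = 0.000363 and log2 fold change -2.19 ± 0.38, adjusted p = 0.000519). The helicase subunits Mcm2 to Mcm7 all fell, with log2 fold changes of -1.46 for Mcm3 to -0.68 for Mcm4. Pcna, the replication clamp, was not called (log2 fold change -0.17, 95% interval -0.47 to 0.14, adjusted p = 0.372). CD8αβ IEL averaged 219.6 CPM of Mki67.

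Immediate early genes, which follow recent stimulation, were mostly lower. Of 26 listed 25 were tested, 15 fell and 4 rose, with a median log2 fold change of -1.0, and 13 fell and 3 rose with the Y-positive library. Nr4a1, a nuclear receptor induced by antigen receptor signals, had 986, 853 and 902 CPM in CD8αα from CD8αβ, against 2528, 2100.1 and 2368 CPM in CD4 IEL (log2 fold change -1.35 ± 0.13, adjusted p = 3.96e-06). Tnfaip3, the NF-κB inhibitor A20, had 1103, 711 and 1066 CPM in CD8αα from CD8αβ, against 5524, 4199.8 and 3521 CPM in CD4 IEL (log2 fold change -2.20 ± 0.37, adjusted p = 0.000392). Dusp2, a phosphatase of MAP kinases, fell furthest, with 8.97, 7.44 and 11.6 CPM in CD8αα from CD8αβ, against 279, 126 and 249 CPM in CD4 IEL (log2 fold change -4.55 ± 0.32, adjusted p = 1.75e-07). Spry1, an inhibitor of growth factor signals, averaged 0.727 ± 0.954 CPM in CD8αα from CD8αβ and 10.3 ± 5.51 CPM in CD4 IEL. Atf3, a stress factor, went the other way, with 83.1, 223 and 233 CPM in CD8αα from CD8αβ, against 5.78, 10.6 and 12.7 CPM in CD4 IEL (log2 fold change 4.23 ± 0.54, adjusted p = 4.3e-05), and was lowest in replicate 1 of CD8αα from CD8αβ. Spry2, a relative of Spry1, had 78.1, 102 and 112 CPM in CD8αα from CD8αβ, against 3.49, 13.7 and 1.80 CPM in CD4 IEL, and its log2 fold change 3.94 ± 0.48, adjusted p = 2.84e-05 was 5.11 without replicate 2 of CD4 IEL. Nr4a2 also rose (log2 fold change 1.23 ± 0.20, adjusted p = 0.000254). Jun and Junb, AP-1 subunits, were not called (log2 fold change 0.35 ± 0.25, adjusted p = 0.292 and log2 fold change -0.16 ± 0.18, adjusted p = 0.507).

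Interferon-stimulated genes varied widely among the libraries of CD8αα from CD8αβ. Of 30 genes 9 rose and 0 fell, with a median log2 fold change of 0.76. The share called was 30%, below the 38.7% of all tested genes. Leaving out replicate 1 of CD8αα from CD8αβ gave 14 that rose, leaving out replicate 3 gave 6 that rose and 1 that fell, with a median of 0.03, and with the Y-positive library 6 rose and 1 fell. With library totals alone 9 rose and 2 fell. Summed over the list, CD8αα from CD8αβ had 2123, 3596 and 5934 CPM in replicates 1, 2 and 3, against 2993, 2844 and 2184 CPM in CD4 IEL. In 26 of the 30 genes replicate 1 of CD8αα from CD8αβ was its lowest and replicate 3 its highest library. Ifi44 had 10.2, 42.3 and 134 CPM in CD8αα from CD8αβ, against 2.07, 6.26 and 0.449 CPM in CD4 IEL, with log2 fold change 4.38 ± 1.03, adjusted p = 0.00434, or 3.15 to 5.47 without replicate 3 of CD8αα from CD8αβ or replicate 2 of CD4 IEL. Oasl1, of the oligoadenylate synthetase family, had 43.3, 109 and 186 CPM in CD8αα from CD8αβ, against 6.0, 5.48 and 3.59 CPM in CD4 IEL (log2 fold change 4.47 ± 0.61, adjusted p = 7.15e-05). Irf7, which amplifies interferon production, had 280.3, 521 and 872 CPM in CD8αα from CD8αβ, against 227, 204 and 186 CPM in CD4 IEL (log2 fold change 1.44 ± 0.37, adjusted p = 0.00749). Rsad2, which encodes the antiviral protein viperin, had log2 fold change 2.51 ± 0.65, adjusted p = 0.00806, or 1.76 without replicate 3 of CD8αα from CD8αβ. Mx1, an antiviral GTPase, overlapped between the groups, with 6.17, 38.7 and 115 CPM in CD8αα from CD8αβ, against 44.4, 24.7 and 24.0 CPM in CD4 IEL (log2 fold change 0.77 ± 0.73, adjusted p = 0.431). Oas3 had the lowest value of the list and was not called with all libraries (log2 fold change -1.67 ± 0.64, adjusted p = 0.0545), but was called lower without replicate 3 of CD8αα from CD8αβ (-2.99).

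**Figure D5:**
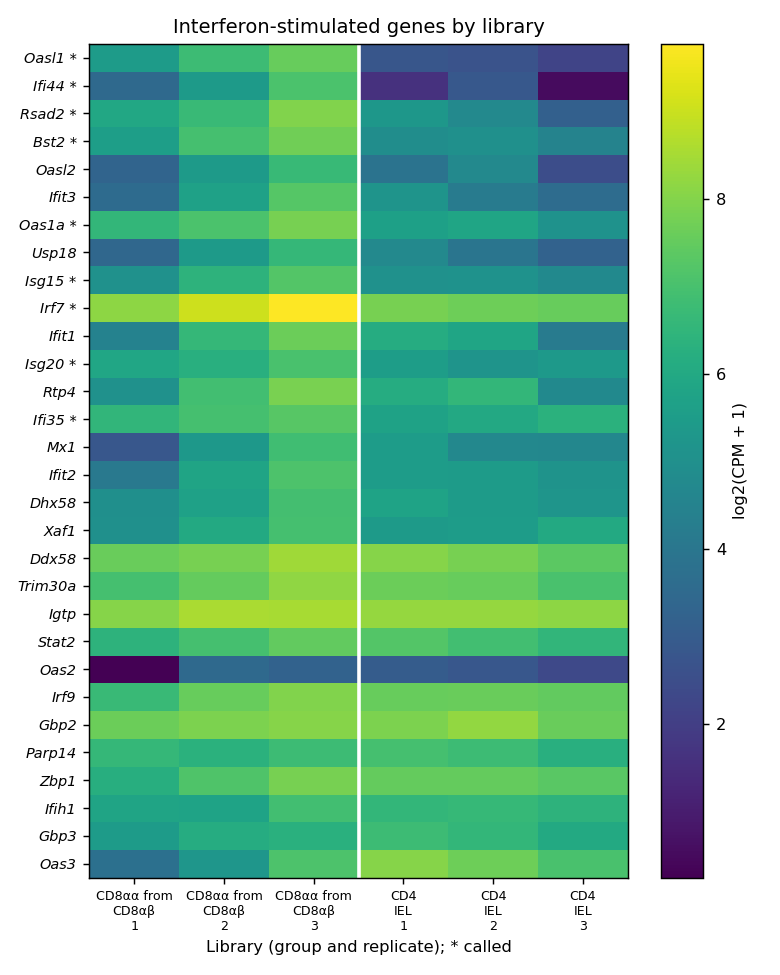
Log2(CPM + 1) of 30 interferon-stimulated genes in the 3 libraries of CD8αα from CD8αβ (left of the white line) and the 3 of CD4 IEL (right), ordered by log2 fold change, with called genes starred. Within CD8αα from CD8αβ, replicate 1 is lowest and replicate 3 highest for 26 of the 30 genes.

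Of 24 genes of sterol and fatty acid synthesis 23 were tested, 11 rose, by at most 1.64 on the log2 scale, 0 fell and 12 were not called. The median log2 fold change over the 23 genes was 0.57, and 0.49 with the Y-positive library. Fdps, which makes farnesyl diphosphate, had 389, 538 and 487 CPM in CD8αα from CD8αβ, against 118, 153 and 181 CPM in CD4 IEL (log2 fold change 1.64 ± 0.22, adjusted p = 5.54e-05). Hmgcs1, at the entry of the mevalonate pathway, had 962, 798 and 1209 CPM in CD8αα from CD8αβ, against 448, 502 and 449.9 CPM in CD4 IEL (log2 fold change 1.08 ± 0.17, adjusted p = 0.000183). Dhcr7 and Sc4mol, which act late in cholesterol synthesis, rose alike (log2 fold change 1.15 ± 0.15, adjusted p = 4.4e-05 and log2 fold change 1.25 ± 0.19, adjusted p = 0.000196). Srebf2, the factor that drives these genes, was not called (log2 fold change -0.03, 95% interval -0.38 to 0.33, adjusted p = 0.906). Glycolysis genes did not move as a group, since 3 of 17 tested rose and 2 fell, with a median log2 fold change of -0.27. The share called was 29.4%, below that of all tested genes. Hk2, the inducible hexokinase, fell (log2 fold change -2.45 ± 0.30, adjusted p = 2.64e-05), Pkm, pyruvate kinase, fell (log2 fold change -0.81 ± 0.14, adjusted p = 0.000423), and Slc16a3, a lactate exporter, Tpi1, triose phosphate isomerase, and Aldoa, an aldolase, rose (log2 fold change 1.85 ± 0.22, adjusted p = 2.8e-05, log2 fold change 1.32 ± 0.20, adjusted p = 0.000207 and log2 fold change 0.48 ± 0.12, adjusted p = 0.00494). With library totals alone 6 glycolysis genes fell and 3 rose. Of 10 class II presentation genes 3 rose and 1 fell, so 40% were called, near the 38.7% of all tested genes. Their median log2 fold change was 0.24, and 0.74 with the Y-positive library. H2-DMa, which helps to load class II molecules, had 92.9, 96.1 and 89.3 CPM in CD8αα from CD8αβ, against 36.9, 39.1 and 39.1 CPM in CD4 IEL (log2 fold change 1.27 ± 0.18, adjusted p = 7.91e-05). H2-DMb1, its partner, averaged 25.9 ± 5.79 CPM in CD8αα from CD8αβ and 4.74 ± 4.31 CPM in CD4 IEL, and Ciita, which drives class II genes, 6.82 ± 2.23 and 2.99 ± 0.926 CPM in the same order. H2-Ob, which restrains that loading, had 0 reads in CD8αα from CD8αβ and averaged 1.48 ± 1.21 CPM in CD4 IEL, while H2-Ab1, a class II chain, was not called (log2 fold change -0.07 ± 0.45, adjusted p = 0.912).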

How the data were processed

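RNA was measured by bulk RNA sequencing in 12 libraries of 4 groups, and the deposited table holds raw read counts per gene, not normalized. The authors aligned reads with HISAT2 2.1.0 to mm10, per the submitters' processing notes. How reads were assigned to genes (program, annotation, strand) is not given in the sources used here. Of 25965 rows, 66 that share a symbol with another row were left out, with 0.0202% of the reads. The 13 mitochondrial rows hold 0 reads.

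Genes were kept by edgeR's filterByExpr (minimum count 10, minimum total 15), scaled by TMM and fitted over all 12 libraries with edgeR 4.0.16 (glmQLFit and glmQLFTest, two-sided, Benjamini-Hochberg adjustment) in R 4.3.3, after tests on simulated data. CPM are computed from these counts and the scaled totals. Exon lengths are the union of all exons of a gene in GENCODE M21, and promoters come from RefSeq. Alternatives were 2 other scalings, DESeq2 1.42.0, no filter, the 6 libraries alone, each library left out, a replicate block, a test against a 2-fold change, and the Y-positive library alone.

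Named genes are the sort and lineage genes, the 12 largest rises and 12 largest falls among called genes whose groups do not overlap and whose level is above the median, up to 3 called genes in each direction per list, the 5 most abundant per group, and further list members given with their values. Predicted genes, small RNAs, ribosomal and receptor segment rows were left out of the largest changes. The comparison, the lists and the genes were chosen with earlier results of these data known. Some list members count in the totals and are not reported here by name.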

Additional observations from a re-analysis of the deposited data

How the results depend on the processing

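The comparison gave 3828 to 4512 calls when 1 of the 6 libraries was left out, against 4887 with all. A test against a 2-fold change called 1494 genes, which is stricter by construction, and the Y-positive library alone gave 3079 calls with 2 libraries fewer. Other alternatives gave 4804 (no filter), 4905 (DESeq2 size factors), 4911 (6 libraries), 5181 (library totals) and 5345 calls (DESeq2's Wald test). With library totals 2110 genes were higher and 3071 lower, and the median of all genes shifted by -0.17 (log2). Against a 2-fold change 1 sterol and fatty acid synthesis, 3 interferon-stimulated and 11 cell cycle genes were called, where the main test called 11, 9 and 34. Same-numbered libraries of the 2 groups did not deviate together (correlations across genes -0.07, 0.06 and -0.02), and a replicate block gave 4977 calls. With 3 libraries per group, whose own differences could mask a shared one, such correlations cannot exclude a pairing. Of the genes given above by their levels alone, Ciita, Csf1, Klrc2, Cebpb, Emr1, Spry1, Tff3 and Zbtb46 lost their calls without 1 library or another. Of 226 named genes in the fit, 156 kept the same call in every alternative and 70 did not. Against the stricter 2-fold change 50 of the named genes lost their call. No called gene named here turned its direction in these alternatives. Depth limits genes under about 0.470 CPM, the level of 3 counts in the smallest library before TMM scaling.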
